A study of Mus musculus with 12 samples.

Results

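The 10 genes described here are nuclear genes whose proteins copy, transcribe and stabilize the mitochondrial genome: *Tfam*, *Polrmt*, *Tfb2m*, *Tfb1m*, *Tefm*, *Lrpprc*, *Slirp*, *Polg*, *Polg2* and *Ssbp1*. They were chosen by name, by matching the Entrez IDs of the count table to these symbols. All 10 of the 10 were among the 27179 genes listed, and all passed the expression filter that left 15502 genes tested. The RNA came from 12 tibialis anterior (TA) muscles of 6 male wild-type C57BL/6N mice, which had been 6 to 8 weeks old on arrival and were used within 2 weeks. In each mouse, 1 TA was electroporated with 10 μg of empty pcDNA3 plasmid (Control muscles, n = 6). The TA of the opposite leg received 10 μg of the same plasmid carrying the full-length human lncRNA *FRAIL1* (*FRAIL1* muscles, n = 6), and muscles were taken at day 7. Thus all muscles had been electroporated and carried plasmid, none was untouched, and the share of fibers that took up plasmid was not measured. *FRAIL1* is a human transcript without a mouse gene in the count table, so its own level was not measured here.

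The mitochondrial genome is a small circle that encodes subunits of the respiratory chain and ATP synthase, the rRNAs of the mitochondrial ribosome and a set of tRNAs. Everything needed to copy and read it is imported from the cytosol. TFAM wraps the DNA into nucleoids and bends the promoters, TFB2M opens them, POLRMT is the RNA polymerase and TEFM keeps it moving. TFB1M, a relative of TFB2M, methylates the small mitochondrial rRNA. LRPPRC and SLIRP form a complex that holds the mRNAs in a stable form, and POLG, its accessory subunit POLG2 and the single-strand binding protein SSBP1 replicate the DNA. Skeletal muscle is rich in mitochondria, and mutations in several of these genes cause mitochondrial disease that affects muscle.

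Total counts ranged from 44848322 to 60527385 per muscle, and single members held between 108 and 6819 counts in a muscle. Across all genes, 6.28% of those tested passed the threshold of 0.05 on the adjusted p-value (quasi-likelihood test of edgeR, adjusted by Benjamini and Hochberg's method), 4.43% as higher and 1.85% as lower in *FRAIL1* muscles. *FRAIL1* muscle 5 stood apart, with the highest TMM scaling factor (1.19, against 0.935 to 0.983 in Control muscles) and the lowest mitochondrial share of counts. The tissue label fits its defining markers: the summed level of 8 myofiber genes lay between 128570 and 151113 CPM, the number of counts scaled to a fixed library size, in Control muscles. In *FRAIL1* muscles that sum was 98608 to 138798 CPM, and there *Ryr1* and *Ckm* were lower past the threshold. Of 6 fiber type genes, which summed to 56360 to 64412 CPM in Control and 41512 to 57533 CPM in *FRAIL1* muscles, the slow fiber genes *Tnni1* and *Tnnt1* rose by 2.27 and 1.77 on the log2 scale (adjusted p = 0.00817 and 0.00526 by edgeR). *Myh4*, the fast fiber myosin, was at -0.43 (adjusted p = 0.0548 by edgeR). The slow fiber myosin *Myh7* did not follow *Tnni1* and *Tnnt1*. Its log2 fold change was 0.39 (adjusted p = 0.696 by edgeR), with 5 of 6 *FRAIL1* muscles below the Control median. *Myh1* was at 0.14 and *Myh2* at -0.21 (adjusted p = 0.269 and 0.862 by edgeR). For markers of other cell types, summed levels are given as ranges, and the sums were not tested. The summed level of 7 satellite cell and regenerating fiber genes was 179 to 230 CPM in Control and 351 to 1597 CPM in *FRAIL1* muscles, that of 7 fibroblast genes 969 to 1814 and 1930 to 5274 CPM, that of 8 macrophage genes 146 to 223 and 179 to 390 CPM, and that of 6 endothelial genes 370 to 424 and 296 to 378 CPM. Of 4 adipocyte genes *Lep* was not tested, and the list summed to 2.03 to 12.7 CPM in Control and 2.29 to 3.47 CPM in *FRAIL1* muscles. In these other cell type lists, only *Ncam1*, *Myh3*, *Myog*, *Myh8* and *Postn* were higher and *Tek* and *Vwf* lower past the threshold by edgeR. No macrophage gene passed (lowest adjusted p = 0.0595 by edgeR). The fibroblast gene *Dcn* was at 0.02 and the macrophage gene *Cd163* at -0.21 on the log2 scale. The part of these shifts in the results below was not tested. In whole muscle, fewer cells of a type and less RNA per cell cannot be told apart.

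None of the 10 genes passed the threshold. At an unadjusted p-value under 0.05 there were 2 of 10, *Tfb2m* and *Polg*, against 27.7% of all genes tested. The 6 values of the groups overlapped for every member, whereas they did not overlap for 4.88% of all genes. The fitted difference was below 0 for 6 of 10, against 48.4% of all genes, and its median was -0.07 on the log2 scale, against 0.01 over all genes tested. *Tfb2m* was called by other tools: the DESeq2 Wald test and limma voom with quality weights each called 1 of the 10, this gene, with adjusted p-values of 0.0449 and 0.0319. These tools called more genes in all, 14.5% of those tested by DESeq2 and 11.8% by limma voom, so 1 of 10 is not above their own share. With the muscle numbers as a block, edgeR also called *Tfb2m* alone of the 10 (adjusted p = 0.0344), against 14.1% of all genes. Leaving out *FRAIL1* muscle 5 left the count at 0.

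**Figure D1:**
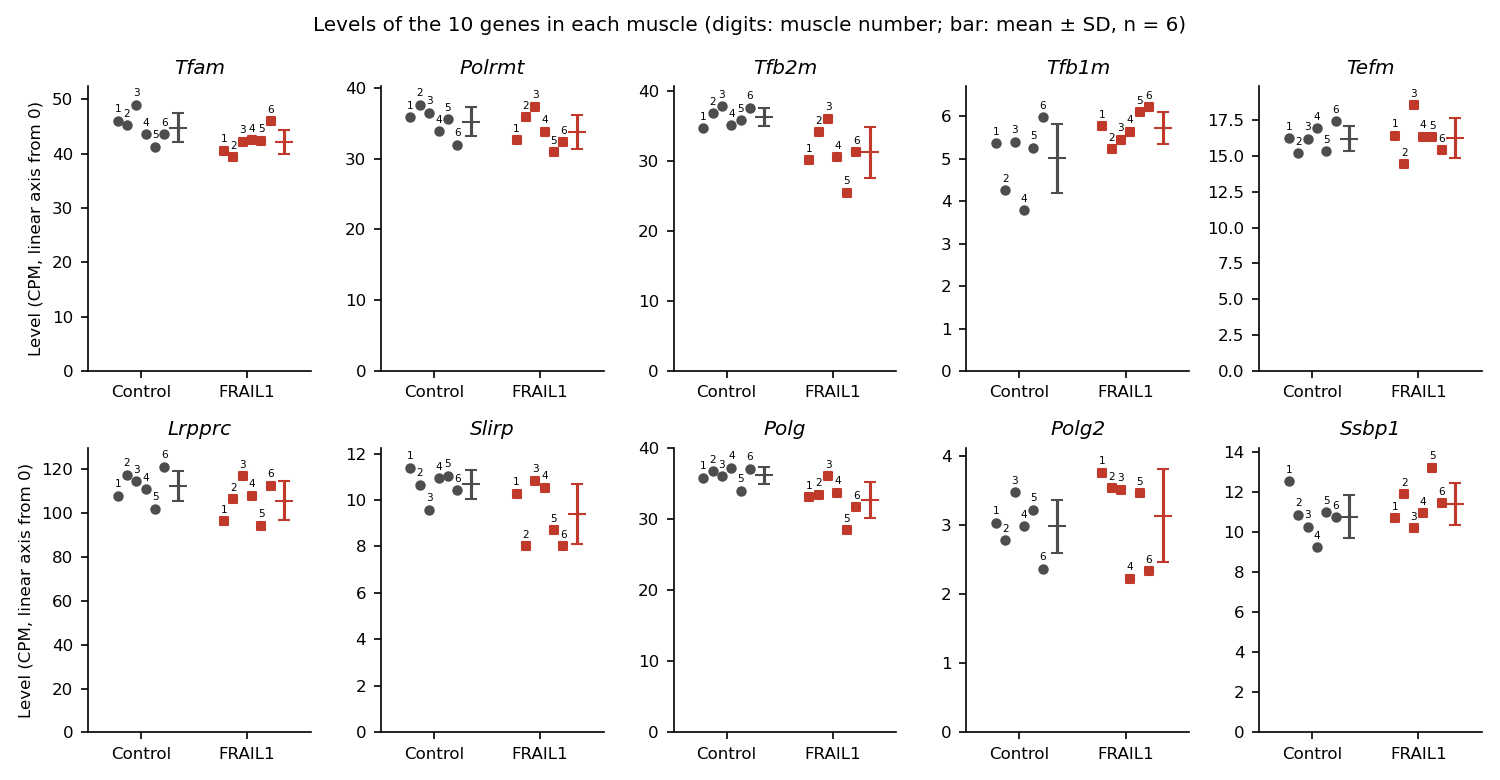
Level of each of the 10 genes in each muscle, in CPM on linear axes that start at 0. Points are muscles, numbered 1 to 6 within a group, and bars give the mean ± SD (n = 6). The groups overlap for every gene, and *FRAIL1* muscle 5 is the lowest of the 12 for *Tfb2m*, *Lrpprc*, *Polg* and *Polrmt* and the highest for *Ssbp1*.

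Compared per kilobase of exon, the members spanned a wide range of levels in Control muscles. *Lrpprc* was the highest at 25.6 ± 1.57 CPM per kb (SD, n = 6), followed by *Tfb2m* at 14.9 ± 0.535, *Tefm* at 12.4 ± 0.666, *Tfam* at 10.2 ± 0.601 and *Polrmt* at 9.37 ± 0.538. *Polg* followed at 4.61 ± 0.153 CPM per kb, *Tfb1m* at 3.58 ± 0.583, *Slirp* at 3.44 ± 0.203, *Polg2* at 1.98 ± 0.252 and *Ssbp1* at 1.93 ± 0.193. Neighbours whose mean ± 1 SD overlapped were *Tfam* and *Polrmt*, *Tfb1m* and *Slirp*, and *Polg2* and *Ssbp1*. The order of the means was the same in *FRAIL1* muscles. There *Tfb2m* (12.8 ± 1.49 CPM per kb) overlapped with *Tefm* (12.4 ± 1.04) and *Polg* (4.18 ± 0.322) with *Tfb1m* (4.09 ± 0.268), besides *Tfam* with *Polrmt* and *Polg2* with *Ssbp1*, while *Tfb1m* no longer overlapped with *Slirp* (3.03 ± 0.418). The length was the union of GENCODE exons, such as 5577 bases for *Ssbp1* and 3104 for *Slirp*. With the longest coding transcript instead (4398 and 2701 bases), *Tfb1m* and *Slirp*, and *Polg2* and *Ssbp1*, changed places in Control muscles. Which transcripts the muscles made was not measured, and a shorter length would raise a gene's level per kb.

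Beginning with transcription, *Tfam* (Gene ID 21780, 8 exon blocks, GRCm38 chromosome 10, 71225468 to 71238328, minus strand) and *Polrmt* (Gene ID 216151, 21 exon blocks, chromosome 10, 79736125 to 79746604, minus strand) encode the DNA-packaging factor and the polymerase. The promoters of several members share a short motif, so 4 of them are shown, from RefSeq (GRCm38.p6), as 250 bases before and 50 after the annotated start. These are the transcription pair, and *Polg* and *Lrpprc*, whose levels are set against the mitochondrial share below. Capitals mark matches to CCGGAAG, the core of sites for ETS factors such as GABP, and to GCGCA followed by any base and GCGC, the core of sites for NRF1, with both strands searched. Both factors are known as activators of genes for mitochondrial proteins.
Tfam, chr10:71237995-71238294, minus strand: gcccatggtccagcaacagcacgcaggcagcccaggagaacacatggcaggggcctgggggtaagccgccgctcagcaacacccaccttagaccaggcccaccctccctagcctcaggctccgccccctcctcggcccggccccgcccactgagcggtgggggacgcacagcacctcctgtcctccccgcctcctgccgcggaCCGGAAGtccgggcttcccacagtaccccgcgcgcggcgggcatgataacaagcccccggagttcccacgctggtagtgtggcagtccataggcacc
Polrmt, chr10:79746532-79746831, minus strand: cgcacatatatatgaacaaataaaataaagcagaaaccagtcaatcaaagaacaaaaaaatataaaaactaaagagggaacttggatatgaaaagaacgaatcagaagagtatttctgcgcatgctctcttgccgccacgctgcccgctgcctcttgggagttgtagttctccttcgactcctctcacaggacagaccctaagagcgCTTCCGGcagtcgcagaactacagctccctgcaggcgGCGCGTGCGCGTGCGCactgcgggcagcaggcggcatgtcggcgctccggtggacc
Polg, chr7:79466224-79466523, minus strand: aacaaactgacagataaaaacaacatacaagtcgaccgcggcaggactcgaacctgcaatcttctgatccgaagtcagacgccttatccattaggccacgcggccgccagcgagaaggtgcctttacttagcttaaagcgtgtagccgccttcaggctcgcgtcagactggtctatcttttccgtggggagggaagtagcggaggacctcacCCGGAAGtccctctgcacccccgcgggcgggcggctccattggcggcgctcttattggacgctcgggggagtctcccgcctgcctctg
Lrpprc, chr17:84790737-84791036, minus strand: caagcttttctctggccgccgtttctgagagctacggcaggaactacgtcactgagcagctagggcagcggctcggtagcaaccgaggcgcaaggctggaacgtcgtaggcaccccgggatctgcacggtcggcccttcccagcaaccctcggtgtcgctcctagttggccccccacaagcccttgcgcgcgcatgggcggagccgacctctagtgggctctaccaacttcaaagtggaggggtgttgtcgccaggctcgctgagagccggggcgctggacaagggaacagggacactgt

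The ETS core stood in 7 of the 10 promoters (*Tfam*, *Polrmt*, *Tefm*, *Slirp*, *Polg*, *Polg2* and *Ssbp1*), and in 15.3% of the 14996 promoters of genes tested. It lay 47 bases before the start in *Tfam* and in *Ssbp1*, 43 in *Polrmt* and 38 in *Polg*, and *Slirp* had 3 copies. The NRF1 core stood in *Polrmt* alone, as 2 overlapping matches at the start, and in 8.70% of promoters of genes tested. The windows of *Lrpprc*, *Tfb1m* and *Tfb2m* held neither string of letters. A match is a description of the sequence, and the members with and without one were not compared further. The table's start lay 236 bases from the nearest GENCODE start of a coding transcript in *Tfam* and 228 in *Lrpprc*.

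*Tfam* ranged from 41.3 to 49.0 CPM (median 44.4) in Control and from 39.4 to 46.0 CPM (median 42.3) in *FRAIL1* muscles. The groups overlapped, with 5 of 6 *FRAIL1* muscles below the Control median. The log2 fold change of *Tfam* was -0.09 (SE 0.0546, adjusted p = 0.312 by edgeR). *Polrmt* ranged from 32.0 to 37.6 CPM (median 35.7) in Control and from 30.9 to 37.3 CPM (median 33.2) with *FRAIL1*, and its log2 fold change was -0.06 (SE 0.0592, adjusted p = 0.544 by edgeR). The polymerase and its DNA-packaging factor thus differed between groups by less than the spread between muscles.

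*Tfb2m* (Gene ID 15278, 8 exon blocks, chromosome 1, 179528052 to 179546305), the promoter-opening factor, had the largest fitted decrease of the 10. In CPM, Control muscles 1 to 6 measured 34.7, 36.9, 37.9, 35.1, 35.9 and 37.7, and *FRAIL1* muscles 1 to 6 measured 30.2, 34.2, 36.1, 30.6, 25.5 and 31.3. All 6 *FRAIL1* muscles lay below the Control median of 36.4 CPM, with *FRAIL1* muscle 5 the lowest and *FRAIL1* muscle 3 within the Control range. Its log2 fold change was -0.22 (SE 0.0713, adjusted p = 0.0746 by edgeR), and the adjusted p-value ranged from 0.0220 to 0.138 over all alternatives. Without *FRAIL1* muscle 3 it was 0.0261, without *FRAIL1* muscle 2 it was 0.0488, and without *FRAIL1* muscle 5 the log2 fold change was -0.16. A stretch covering 48.5% of the *Tfb2m* transcript matched the copy *Gm1818* at 98% identity or more, so unique counting could split or drop its reads. *Gm1818* itself averaged 15.3 ± 1.59 CPM in Control muscles and 12.8 ± 2.57 CPM with *FRAIL1* (SD, n = 6 each), with a log2 fold change of -0.25 (adjusted p = 0.190 by edgeR).

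*Tfb1m* (Gene ID 224481, 7 exon blocks, chromosome 17, 3519250 to 3557796), the rRNA methyltransferase, had the largest fitted increase. It measured 3.80 to 5.99 CPM (median 5.32) in Control and 5.23 to 6.22 CPM (median 5.71) in *FRAIL1* muscles, and 5 of 6 *FRAIL1* muscles lay above the Control median. The fitted log2 fold change was 0.19 (SE 0.112, adjusted p = 0.274 by edgeR). Control muscles 2 and 4 were the lowest of the 12, and the other 4 Control muscles overlapped with the *FRAIL1* muscles. *Tefm* (Gene ID 68550, 4 exon blocks, chromosome 11, 80136674 to 80142871), the elongation factor, was at 15.2 to 17.4 CPM (median 16.2) in Control and 14.4 to 18.6 CPM (median 16.3) in *FRAIL1* muscles. Its log2 fold change of 0.003 (SE 0.0669, adjusted p = 0.983 by edgeR) was the smallest of the 10 in size, and its sign turned with the scaling.

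*Lrpprc* (Gene ID 72416, 38 exon blocks, chromosome 17, 84705247 to 84790786) encodes the larger partner of the mRNA-stabilizing complex. It measured 102 to 121 CPM (median 113) in Control and 94.3 to 117 CPM (median 107) in *FRAIL1* muscles. *FRAIL1* muscles 1 and 5 lay below every Control muscle and the other 4 within the Control range. The log2 fold change was -0.09 (SE 0.0655, adjusted p = 0.404 by edgeR). *Slirp* (Gene ID 380773, 3 exon blocks, chromosome 12, 87443896 to 87449924), the smaller partner, measured 9.58 to 11.4 CPM (median 10.8) in Control and 8.01 to 10.8 CPM (median 9.48) in *FRAIL1* muscles. *FRAIL1* muscles 2, 5 and 6 lay below every Control muscle and *FRAIL1* muscles 1, 3 and 4 within the Control range, for a log2 fold change of -0.18 (SE 0.0912, adjusted p = 0.202 by edgeR). The value of *Slirp* is uncertain because exons of *Snw1* on the opposite strand cover 93.9% of its exons and the strand setting of the counting is not given in the sources used here. *Snw1* was at 61.9 ± 2.90 CPM in Control and 61.8 ± 3.51 CPM in *FRAIL1* muscles (SD, n = 6).

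Among the replication proteins, *Polg* (Gene ID 18975, 23 exon blocks, chromosome 7, 79446231 to 79467911), the catalytic subunit of the polymerase, was narrowly spread in Control muscles, at 35.8, 36.8, 36.0, 37.2, 34.0 and 37.1 CPM in muscles 1 to 6. *FRAIL1* muscles 1 to 6 measured 33.1, 33.4, 36.0, 33.7, 28.5 and 31.6 CPM. All 6 lay below the Control median of 36.4 CPM, 5 of them below every Control muscle, and *FRAIL1* muscle 3 within the Control range. Its log2 fold change was -0.14 (SE 0.0569, adjusted p = 0.120 by edgeR), with adjusted p-values between 0.0547 and 0.210 over all alternatives. Exons of *Fanci* on the opposite strand overlap 10.5% of *Polg* exons, and *Fanci* was at 1.19 ± 0.237 CPM in Control muscles (SD, n = 6).

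*Polg2* (Gene ID 50776, 8 exon blocks, chromosome 11, 106768204 to 106779537), the accessory subunit, was the lowest of the 10 in CPM, at 2.37 to 3.48 (median 3.01) in Control and 2.22 to 3.76 (median 3.49) in *FRAIL1* muscles. *FRAIL1* muscles 4 and 6 lay below every Control muscle and *FRAIL1* muscles 1, 2 and 3 above, so the spread was wider than in Control muscles (SD 0.672 against 0.379 CPM). The log2 fold change was 0.08 (SE 0.154, adjusted p = 0.785 by edgeR). *Ssbp1* (Gene ID 381760, 7 exon blocks, chromosome 6, 40471414 to 40481823), which coats the unwound strand, measured 9.26 to 12.6 CPM (median 10.8) in Control and 10.2 to 13.2 CPM (median 11.2) in *FRAIL1* muscles. *FRAIL1* muscle 5 was the highest of the 12, and the log2 fold change was 0.08 (SE 0.0840, adjusted p = 0.556 by edgeR).

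Ratios between partner proteins' mRNAs do not depend on the scaling, and 6 were compared with an exact permutation test over all splits of the muscles into 6 and 6 (two-sided). The ratio of *Tfb2m* to *Tfb1m* differed most, at 2.87 ± 0.231 in Control and 2.44 ± 0.249 in *FRAIL1* muscles on the log2 scale (SD, n = 6). The difference was -0.43 (exact p = 0.0152, adjusted over the 6 ratios 0.0909). The ratio of *Ssbp1* to *Polg* was -1.75 ± 0.169 and -1.52 ± 0.240, a difference of 0.23 (exact p = 0.0823, adjusted 0.247). The differences were -0.20 for *Polg* to *Polg2*, 0.10 for *Lrpprc* to *Slirp*, -0.06 for *Polrmt* to *Tefm* and -0.03 for *Tfam* to *Polrmt*, with exact p-values of 0.255 to 0.714. None of the 6 passed after adjustment, and without *FRAIL1* muscle 3 there were 2 that did.

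RNA of the mitochondrial genome was followed in the same libraries as the share of counts from its genes. The share also depends on the nuclear RNAs counted beside it, and the amount of mitochondrial DNA was not measured. The share was 10.2, 11.4, 10.8, 11.1, 9.12 and 11.3% in Control muscles 1 to 6, and 7.54, 9.90, 9.79, 9.18, 6.58 and 9.38% in *FRAIL1* muscles 1 to 6. The means were 10.6 ± 0.846% and 8.73 ± 1.35% (SD, n = 6), a difference of -1.91 percentage points (exact permutation test, two-sided, p = 0.0130). Control muscle 5 lay within the range of the *FRAIL1* muscles, and the other 5 Control muscles lay above all of them. Without *FRAIL1* muscle 5 the difference was -1.48 percentage points (exact p = 0.0195).

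The mRNAs and rRNAs of the mitochondrial genome differed in this. The mRNAs took 10.1 ± 0.805% and 8.19 ± 1.35% of the counts, and the rRNAs 0.522 ± 0.0522% in Control and 0.538 ± 0.0426% in *FRAIL1* muscles (SD, n = 6; exact permutation p = 0.604 for the rRNAs). Counts of mRNA per rRNA count were 18.1 to 21.1 in Control and 10.5 to 17.5 in *FRAIL1* muscles, without overlap. This ratio was chosen after its values were seen, and the libraries were made from poly(A)-selected RNA, which holds rRNA only in part. By gene, all 13 mRNAs had a fitted log2 fold change below 0, between -0.59 and -0.35, against 48.4% of all genes below 0. None of the 13 passed the threshold (adjusted p = 0.0501 to 0.209 by edgeR). An unadjusted p-value under 0.05 by edgeR was reached by 12, against 27.7% of all genes tested. DESeq2 and limma voom, which called 14.5% and 11.8% of all genes, called 7 and 8. The 13 were counted in the same 12 libraries, so they are not 13 separate observations. With upper-quartile scaling edgeR called 4, against 7.08% of all genes. With the muscle numbers as a block it called 7, against 14.1% of all genes. EdgeR called 6 of the 13 without *FRAIL1* muscle 2, 8 without muscle 3 and 6 without muscle 5. The shares of all genes in these 3 fits were 10.1%, 13.5% and 6.22%. With each of the other muscles left out, edgeR called 0, or 1 without Control muscle 1, against 2.33 to 3.85% of all genes. *mt-Rnr1*, the small rRNA, had a log2 fold change of 0.14 (adjusted p = 0.270 by edgeR) and *mt-Rnr2*, the large rRNA, of -0.22 (adjusted p = 0.169 by edgeR). For *mt-Rnr1* 5 *FRAIL1* muscles lay above the Control median, and for *mt-Rnr2* 6 lay below it. The summed rRNA share, taken from unscaled counts, does not show these opposite directions. Levels differed widely among the mRNAs, from 0.947 CPM for *mt-Atp8* and 13.1 CPM for *mt-Co2* to 42209 CPM for *mt-Co1* in Control muscles. *mt-Co2*, *mt-Co3*, *mt-Atp6*, *mt-Nd3* and *mt-Nd4l*, which were at 13.1 CPM or less, are each matched over 99.0 to 99.9% of their length by a nuclear gene copy, and reads that map to both are not counted as unique. *mt-Atp8* had no such match, but only annotated transcripts were searched, so a copy elsewhere in the nuclear genome would have been missed. *mt-Nd4* (63.6% matched, 7100 CPM) and *mt-Co1* (31.3% matched) kept high counts. The cause of the low counts was not tested, and the share rests almost wholly on the other mRNAs.

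**Figure D2:**
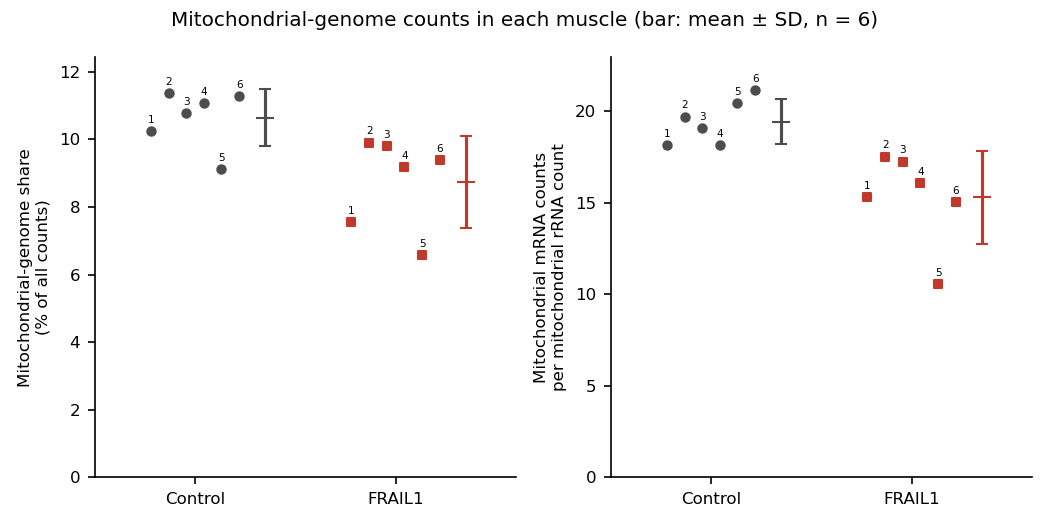
Left, share of all counts from genes of the mitochondrial genome in each muscle (%). Right, counts of mitochondrial mRNA per count of mitochondrial rRNA. Points are muscles, numbered 1 to 6, and bars give the mean ± SD (n = 6). The ratio on the right is 18.1 to 21.1 in Control and 10.5 to 17.5 in *FRAIL1* muscles, and *FRAIL1* muscle 5 is the lowest in both panels.

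**Figure D3:**
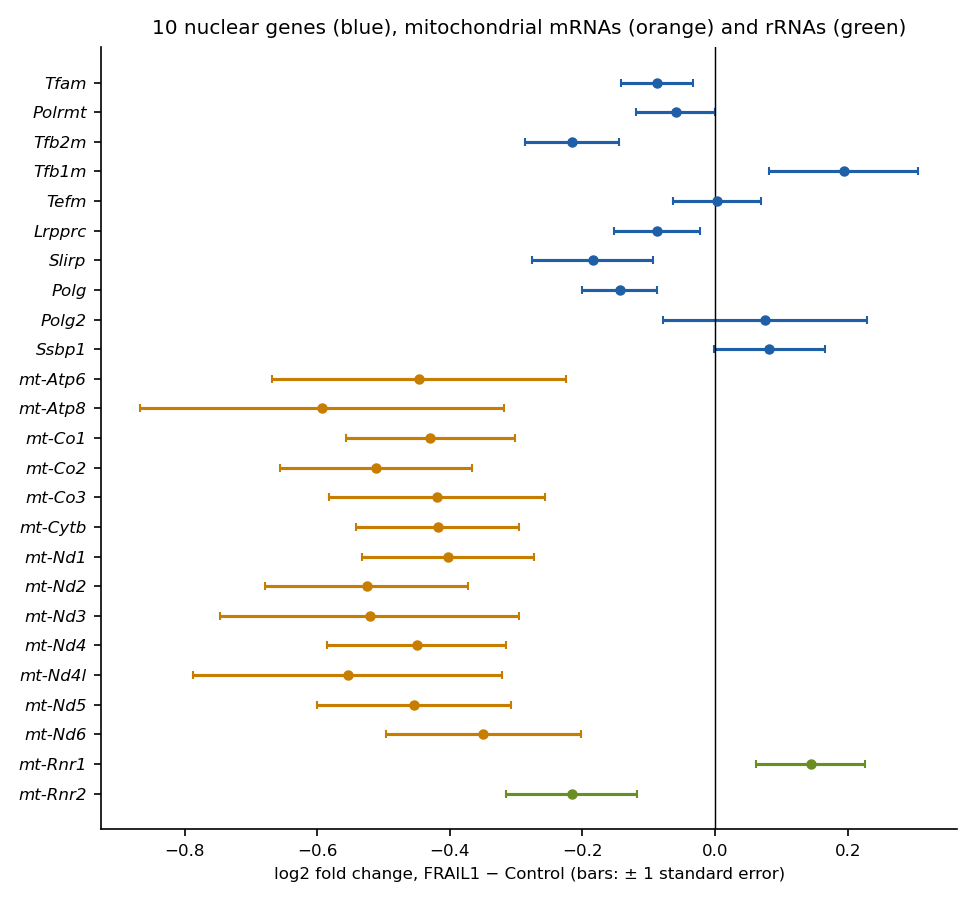
Log2 fold change, *FRAIL1* minus Control, of the 10 nuclear genes (blue), the 13 mitochondrial mRNAs (orange) and the 2 mitochondrial rRNAs (green), with bars of 1 SE from edgeR's fit. The 10 genes lie between -0.22 and 0.19 and the 13 mRNAs between -0.59 and -0.35.

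Next, the level of each member was related to the mitochondrial share within each group of 6 muscles, so that the difference between groups does not enter. Of the 20 relations (10 genes, 2 groups), none passed 0.05 after Benjamini-Hochberg adjustment, by Pearson's r or by Spearman's rho. The test was an exact permutation over 720 pairings, two-sided. For rho, the smallest p-value that 6 muscles allow is 0.00278. A single rho at that value would be adjusted to 0.0556, so no rho on its own could have passed. This limit does not hold for r, since reversing the order of the muscles need not give an r of the same size. *Lrpprc* had a high r in both groups. In Control muscles r was 0.914 (exact p = 0.00833, adjusted 0.0741) and rho 0.886 (exact p = 0.0333, adjusted 0.333). In *FRAIL1* muscles r was 0.909 (exact p = 0.0194, adjusted 0.0972) and rho 0.657 (exact p = 0.175, adjusted 0.5). Muscles with the lowest mitochondrial share, Control 5 and *FRAIL1* 1 and 5, had the lowest *Lrpprc* of their group. With any 1 muscle left out r stayed at 0.810 to 0.971 in Control and at 0.845 to 0.977 in *FRAIL1* muscles. Without the 2 muscles farthest from the median share, muscles 1 and 5 in each group, r was 0.572 and 0.149, and rho 0.6 and -0.2. The muscles left span a narrower range of shares, which can itself lower r. How far the relation rests on muscles 1 and 5 cannot be told from these values. The share of nuclear genes with an r at least as high was 0.781% in Control and 4.22% in *FRAIL1* muscles.

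For *Polg*, r was 0.963 in Control (exact p = 0.0111, adjusted 0.0741) and 0.758 in *FRAIL1* muscles (exact p = 0.0556, adjusted 0.218), with rho of 0.771 (exact p = 0.103, adjusted 0.411) and 0.600 (exact p = 0.242, adjusted 0.604). Without muscles 1 and 5 of each group r was 0.666 and 0.440, and without *FRAIL1* muscle 5 alone r in *FRAIL1* muscles was 0.296. For *Tfb2m*, r was 0.407 in Control (exact p = 0.432, adjusted 0.617) and 0.901 in *FRAIL1* muscles (exact p = 0.00417, adjusted 0.0741), with rho of 0.371 (exact p = 0.497, adjusted 0.904) and 0.943 (exact p = 0.0167, adjusted 0.333). In *FRAIL1* muscles r of *Tfb2m* was 0.905 without muscles 1 and 5, over 4 muscles. An r at least as high as that of all 6 *FRAIL1* muscles was reached by 4.78% of nuclear genes for *Tfb2m*, 12.2% for *Polrmt* and 14.6% for *Polg*. Whether it differed between the groups was not tested. *Polrmt* had an r of -0.193 in Control (exact p = 0.713, adjusted 0.838) and 0.799 in *FRAIL1* muscles (exact p = 0.0653, adjusted 0.218), with rho of 0.0857 (exact p = 0.919, adjusted 0.919) and 0.771 (exact p = 0.103, adjusted 0.411). *Tfam*, whose protein packages the DNA itself, had an r of 0.413 in Control (exact p = 0.415, adjusted 0.617) and 0.0510 in *FRAIL1* muscles (exact p = 0.906, adjusted 0.929), both of which turned negative without muscles 1 and 5. For *Tfb1m*, *Tefm*, *Slirp*, *Polg2* and *Ssbp1*, r lay between -0.573 and 0.445 in the 2 groups, and single muscles decided some of these values: r of *Tefm* was 0.939 without Control muscle 2 and 0.006 without Control muscle 5, and r of *Tfb1m* was -0.940 without *FRAIL1* muscle 6. A level and a share of 1 library sum to a fixed total, so the levels were also computed over counts outside the mitochondrial genome, where r was 0.925 and 0.914 for *Lrpprc*, 0.947 and 0.774 for *Polg*, and 0.460 and 0.903 for *Tfb2m*.

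**Figure D4:**
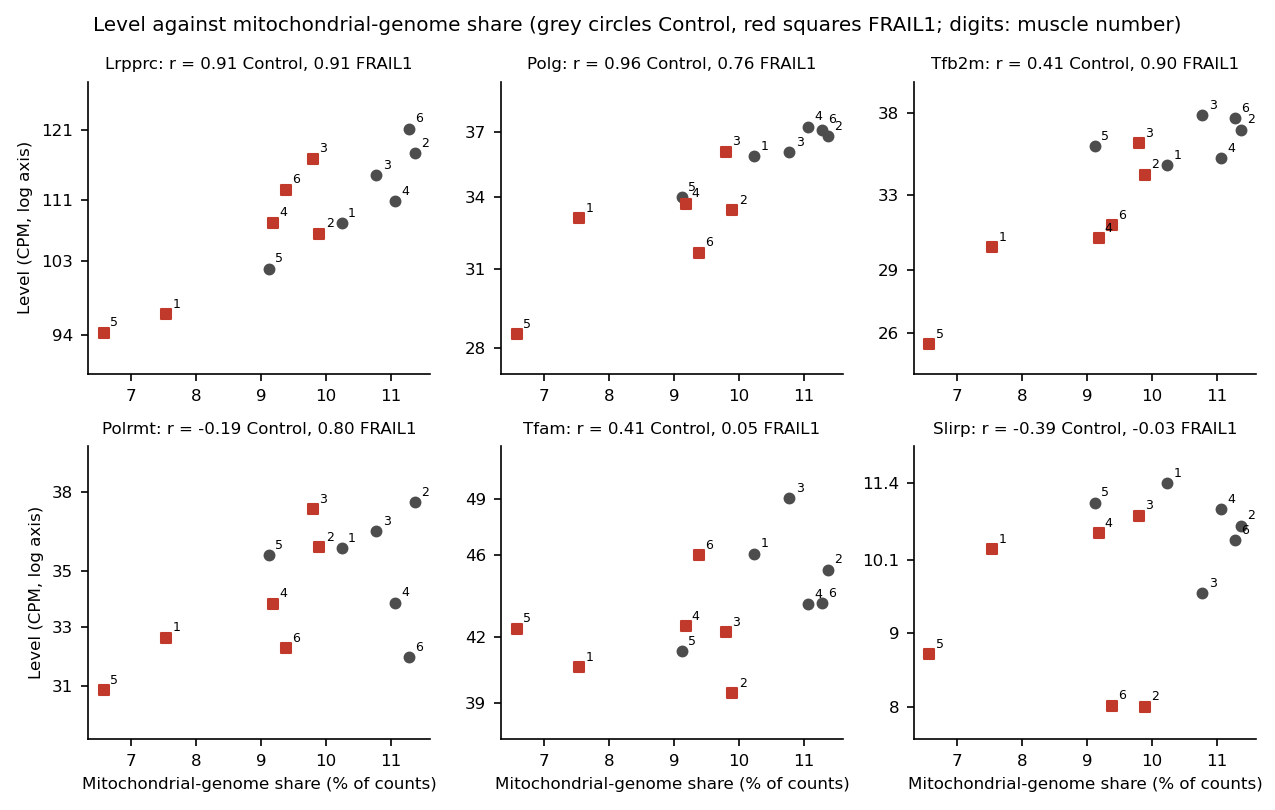
Level of 6 of the 10 genes (CPM, log axis) against the share of counts from the mitochondrial genome (%), with grey circles for Control and red squares for *FRAIL1* muscles, numbered 1 to 6. *Lrpprc* lies along a rising line in each group (r of 0.91 in both), *Polg* mostly in Control (0.96) and *Tfb2m* in *FRAIL1* muscles (0.90), while *Tfam* and *Slirp* scatter.

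The members did not move as 1 block between muscles. Over deviations from the group means in the 12 muscles, as a description, r was 0.822 between *Tfb2m* and *Polg*, 0.746 between *Tfb2m* and *Lrpprc*, 0.707 between *Lrpprc* and *Polg*, and 0.674 between *Polrmt* and *Tfb2m*. *Lrpprc* and *Slirp*, whose proteins form a complex, had an r of -0.05, *Polg* and *Polg2* of -0.10, and *Tfam* and *Polrmt* of 0.01. *Ssbp1* ran against *Polg*, with an r of -0.68. The muscles share scaling and cell makeup in these values.

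By the same measure, the genes most like *Tfb2m* were *Golga2* (r = 0.991), *Gstm1* (0.971) and *Plaat1* (0.970), those most like *Lrpprc* were *Adk* (0.954), *Fam210a* (0.951) and *Txndc16* (0.945), and those most like *Polg* were *Pip5k1a* (0.939), *Zbtb38* (0.934) and *Mcrs1* (0.928). For *Tfam* they were *Pnpt1* (0.906), which encodes a mitochondrial RNA-degrading enzyme, *Eif3m* (0.902) and *Plk5* (0.889), and for *Polrmt* *Tfg* (0.940), *Atp13a5* (0.935) and *Btbd7* (0.915). For the other members all r lay between 0.869 and 0.916, with *Moap1* and *Ccl27a* for *Tfb1m*, *Zfp866*, *Pebp4* and *Prss23* for *Tefm*, *Pdcd5-ps*, *Rrp7a* and *Txnl4b* for *Slirp*, *Taf5*, *Plxna1* and *Ddhd2* for *Polg2*, and *Spred3*, *Rnd2* and *Fgfbp3* for *Ssbp1*. Each is the best match among all genes tested over 12 muscles, and no other meaning is given to it.

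Around these 10 genes, 87 others of mitochondrial DNA and RNA metabolism were listed in 7 lists, and all were tested. In edgeR's fit 3 of the 87 passed the threshold, 2 higher and 1 lower, against 6.28% of all genes. An unadjusted p-value under 0.05 was reached by 20 of the 87, against 27.7% of all genes tested. The fitted difference was above 0 for 31 and below 0 for 56, against 48.4% of all genes below 0. Its median was -0.06, against 0.01 over all genes tested. Leaving out *FRAIL1* muscle 5 gave 2 calls, against 6.22% of all genes.

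*Trit1*, which encodes a tRNA isopentenyltransferase that acts on cytosolic and mitochondrial tRNAs, rose. It measured 8.53 to 10.8 CPM (median 8.77) in Control and 11.4 to 17.9 CPM (median 12.8) in *FRAIL1* muscles, without overlap, for a log2 fold change of 0.54 (SE 0.110, adjusted p = 0.0151 by edgeR). *Trit1* was the only one of the 3 called under all 22 alternatives, with adjusted p-values up to 0.0403. *Mterf4*, which encodes a factor that guides rRNA methylation and ribosome assembly, rose from a range of 10.8 to 12.8 CPM (median 12.4) in Control to one of 13.2 to 16.5 CPM (median 14.7) with *FRAIL1*, which is a log2 fold change of 0.26 (SE 0.0724, adjusted p = 0.0445 by edgeR). It was called under 11 of the 22 alternatives, with a highest adjusted p of 0.0909 without Control muscle 3. *Rxra*, a nuclear receptor, fell from a range of 214 to 234 CPM (median 225) in Control to one of 110 to 202 CPM (median 168) with *FRAIL1*, which is a log2 fold change of -0.43 (SE 0.109, adjusted p = 0.0335 by edgeR). It was called under 13 of the 22, with a highest adjusted p of 0.0710 without Control muscle 1.

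In the list of mtDNA replication and repair, 0 of 13 genes passed in edgeR's fit. The DESeq2 Wald test called 4 of them and limma voom 3 (14.5% and 11.8% of all genes). In this list 5 had an unadjusted p-value under 0.05 by edgeR, against 27.7% of all genes tested, and the median log2 fold change was -0.09. Its largest differences were 0.47 for *Primpol*, a primase that restarts stalled forks (adjusted p = 0.0534 by edgeR), and -0.41 for *Mgme1*, an exonuclease that processes DNA ends (adjusted p = 0.0558 by edgeR). In deoxynucleotide supply 0 of 11 passed by edgeR (4 unadjusted) and 0 by DESeq2 or limma voom, with a median of -0.17. The largest differences there were -0.39 for *Tymp*, thymidine phosphorylase (adjusted p = 0.298 by edgeR), and -0.23 for *Rrm2b*, a ribonucleotide reductase subunit (adjusted p = 0.239 by edgeR). Of 8 nucleoid proteins 0 passed by edgeR (0 unadjusted), DESeq2 or limma voom. In this list 7 were fitted lower, against 48.4% of all genes, with a median of -0.10. The largest differences were -0.14 for *Atad3a* (adjusted p = 0.233) and -0.11 for *Clpx* (adjusted p = 0.273, both by edgeR).

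Of the genes each tested, edgeR called 6.28%, DESeq2 14.5% and limma voom 11.8%. By edgeR, 27.7% had an unadjusted p-value under 0.05 and 48.4% were fitted lower. Of 6 transcription termination factors and related genes 1 passed by edgeR, *Mterf4*, and 1 each by DESeq2 and limma voom. In this list 5 were fitted higher and 1 lower, with a median of 0.14. *Mterf1a* was at 0.44 (adjusted p = 0.164 by edgeR), from 1.05 CPM in Control muscles. Of 15 genes of mitochondrial tRNA processing and modification 1 passed by edgeR, *Trit1*, against 3 by DESeq2 and 2 by limma voom, and *Trmu*, a tRNA thiolase, followed with 0.27 (adjusted p = 0.0598 by edgeR), with a list median of -0.03. Of 24 genes of mRNA and rRNA stability and RNA granules 0 passed by edgeR (1 unadjusted), DESeq2 or limma voom, with a median of -0.05, and the largest differences were -0.23 for *Fastkd2* (adjusted p = 0.139) and 0.15 for *Fastkd5* (adjusted p = 0.356, both by edgeR), a pair of RNA-binding proteins of mitochondria. Of 10 nuclear regulators 1 passed by edgeR, *Rxra*, and 1 each by DESeq2 and limma voom, and 4 had an unadjusted p-value under 0.05, with a median of -0.07. *Myc* was at 0.32 (adjusted p = 0.164 by edgeR). The genes for the factors of the promoter motifs, *Nrf1*, *Gabpa* and *Gabpb1*, had log2 fold changes of -0.09, -0.05 and 0.04, and *Ppargc1a*, a coactivator of mitochondrial biogenesis, of -0.14 (adjusted p = 0.312 to 0.807 by edgeR for these 4). In the same list *Ppargc1b* was at 0.16 and *Esrra* at -0.24 (adjusted p = 0.246 and 0.102 by edgeR). *Nrf1*, *Gabpa* and *Gabpb1* are named for the motifs and not by the rule for named genes. *Ppargc1a*, *Ppargc1b* and *Esrra* are also named outside that rule.

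**Figure D5:**
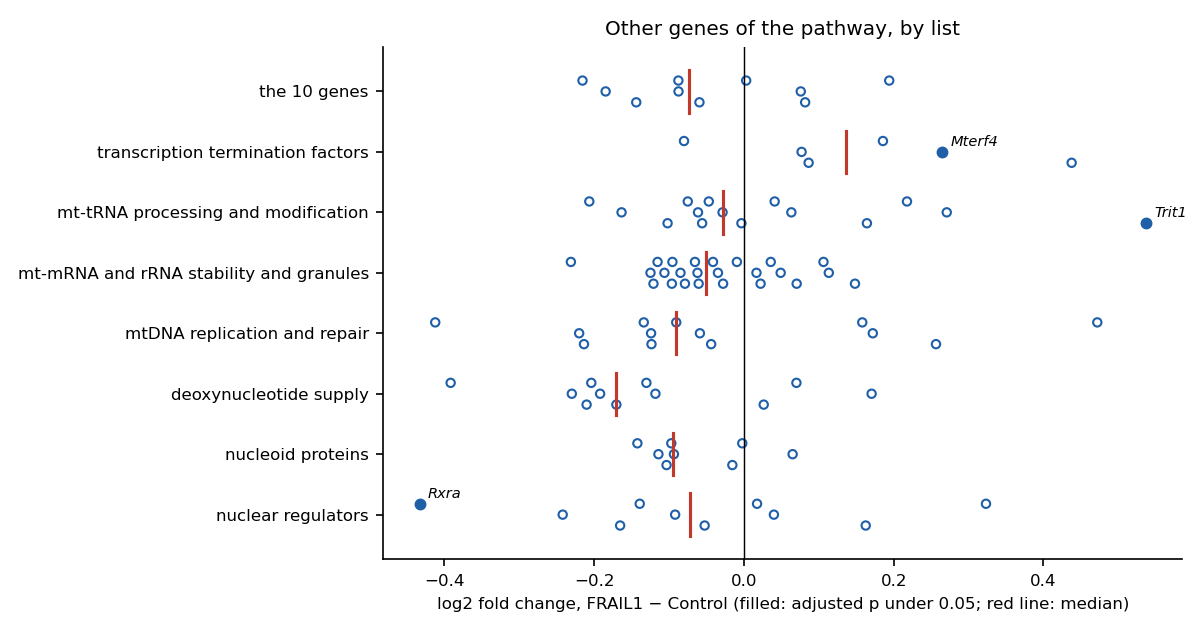
Log2 fold change, *FRAIL1* minus Control, of the 10 genes and of the 87 other genes in 7 lists. Each circle is a gene, filled where the adjusted p-value by edgeR is under 0.05 (*Trit1*, *Mterf4* and *Rxra*), and red lines mark list medians, between -0.17 for deoxynucleotide supply and 0.14 for transcription termination factors.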

How the data were processed

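RNA-seq counts of 12 TA muscles were analysed. According to the submitters' processing notes and the paper's methods, poly(A)-selected RNA was sequenced on an Illumina NovaSeq, and the tools were Trimmomatic for trimming, STAR 2.7.8a for mapping to mm10 and featureCounts 2.0.1. The authors deposited whole-number counts of uniquely mapped reads per gene, without normalization. Of 27179 Entrez IDs, 25275 matched a RefSeq GRCm38.p6 symbol, and the others held 0.280% of the counts. The deposited table was filtered with filterByExpr, scaled with TMM and fitted with edgeR 4.0.16 (robust quasi-likelihood test, R 4.3.3) on all genes, with Benjamini-Hochberg adjustment. CPM uses the TMM-scaled library sizes, and 0.5 was added before log2 when r was compared across all genes. Copies were searched with BLAST 2.17.0 (98% identity over 100 bases) in GENCODE M21 transcripts. The steps were tested on simulated data, and no library was a copy of another.

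Named genes were the 10 members, every gene of the other lists past 0.05, the 2 largest differences of each list, and the 3 genes most like each member, of which 1 is not reported here. Mitochondrial mRNAs were named with values where called and otherwise given by range, except those set beside their matches to nuclear copies, chosen after their values were seen. The members and lists were chosen with earlier results of these data known. That muscles were separate samples of a group comes from the labels. Alternatives were DESeq2 1.42.0 (Wald test, or its size factors), limma 3.58.1 voom, upper-quartile scaling, other filters, a fit that was not robust, scaling without mitochondrial genes, a replicate block, and leaving out each muscle. Counts limit mainly the precision of *Polg2*, *Tfb1m* and genes of similar level.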

Additional observations from a re-analysis of the deposited data

Results flagged for a closer look

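In the *FRAIL1* muscles, muscle 5 stood apart from the other 5 in the ratio of mitochondrial mRNA to mitochondrial rRNA counts, with a log2 value of 3.40, while the others lay between 3.91 and 4.13 and the Control muscles between 4.18 and 4.40. Its gap to the nearest muscle exceeded Dixon's critical value for 6 samples. This was 1 of 42 groups of muscles looked at (members, ratios and mitochondrial shares), and about 1 in 20 groups is marked by chance. The same muscle had the lowest mitochondrial share, 6.58%.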

How the results depend on the processing

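The count of members called moved from 0 to 1, always *Tfb2m*, with the DESeq2 Wald test (1), limma voom (1), and over the muscles left out in turn (0 to 1). The count of other pathway genes moved from 3 to 9 and 7 with these tools and to between 1 and 8 with a muscle left out, so single muscles decide it: it was 6 when *FRAIL1* muscle 2 was left out, 8 when *FRAIL1* muscle 3 was, and 1 when any 1 Control muscle or *FRAIL1* muscle 1 or 4 was. The calls over all genes moved with it: they were 14.5% and 11.8% with these tools, 10.1% and 13.5% without *FRAIL1* muscles 2 and 3, and 2.56 to 3.43% without a Control muscle. The ratios past adjustment numbered 0 to 2. The cause was not tested. The mitochondrial share kept its direction and side of the threshold under all its alternatives (difference -2.96 to -1.48 percentage points).

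Muscles carry the numbers 1 to 6 in both groups, and the labels do not state that a number marks a mouse. The deviations of same-numbered muscles correlated by 0.0723 to 0.350, over 0.1 for 5 of 6 numbers, and 5 of 6 Control and 5 of 6 *FRAIL1* muscles correlated best with their own number. With the replicate block 1 member (*Tfb2m*, adjusted p = 0.0344) and 7 other pathway genes were called in edgeR, 1 and 9 with DESeq2, and over all genes 2186 in place of 974 (DESeq2 2827). Of the 13 mitochondrial mRNAs, 7 were called with the block in edgeR and 11 in DESeq2, against 14.1% and 18.9% of all genes. The mitochondrial share had an exact sign-flip p of 0.0313 with the block, the smallest that 6 pairs allow.

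The log2 fold change of *Tefm* changed sign with DESeq2's size factors (-0.0041), the DESeq2 Wald test (-0.0060, and -0.0083 with the block), limma voom (-0.0047) and over the muscles left out (-0.039 to 0.032), and that of *Polg2* with limma voom (-0.020). Without the 2 muscles farthest from the median share, r changed sign in Control muscles for *Tfam* (-0.715), *Tfb2m* (-0.105), *Tefm* (-0.151), *Slirp* (0.704) and *Ssbp1* (0.457), and in *FRAIL1* muscles for *Tfam* (-0.637), *Polg2* (0.978) and *Ssbp1* (0.0506). With 1 muscle left out r ranged from -0.486 to 0.549 for *Tfam* and -0.575 to 0.182 for *Polrmt* in Control, and in *FRAIL1* muscles from -0.262 to 0.443 for *Tfam*, -0.719 to 0.292 for *Tefm*, -0.356 to 0.256 for *Slirp* and -0.779 to 0.278 for *Ssbp1*, and the difference in the *Tfam* to *Polrmt* ratio from -0.064 to 0.011.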
